A study of Mus musculus with 32 samples.

Results

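The cytosolic ribosomal protein genes of mouse glia were followed across cell types, brain regions, genotypes and treatments. They were taken by name: every row whose symbol starts with Rpl or Rps followed by a digit, together with Rplp0, Rplp1, Rplp2 and Rpsa, leaving out symbols that contain -ps and those that start with Rps6k. This gave 93 of 55341 genes, 55 named for the large subunit and 38 for the small subunit. In the GENCODE M21 annotation 86 of them were protein coding, 5 were processed pseudogenes and 2 were transcribed processed pseudogenes. Rps19bp1 and Rpl7l1 carry such a name although their products are not structural proteins of the mature ribosome.

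Single-cell RNA-seq was run on cortex and hippocampus of 16 female mice, which gave 32 libraries. All mice were 15 months old and had received either plain drinking water (vehicle) or PMX205, an antagonist of the complement receptor C5aR1, for 12 weeks. By genotype and treatment there were 4 Tg2576 mice on vehicle (Tg2576-vehicle), 4 on PMX205 (Tg2576-PMX205), 5 wild-type mice on vehicle (WT-vehicle) and 3 on PMX205 (WT-PMX205). Tg2576 mice carry human amyloid precursor protein with the Swedish mutation, driven by the hamster prion promoter. The labels also carried a strain field that names WT or Arctic mice, alone, as C5ar1 knockouts or as C5a overexpressors, with 5 knockouts and 5 overexpressors among the 16 mice. The strain field of WT-vehicle 4 read Arctic C5ar1 knockout and that of Tg2576-vehicle 3 read WT with C5a overexpression, against their group labels. Microglia and astrocytes had been enriched with Anti-CD11b and Anti-ACSA-2 MicroBeads, and the dissociation medium held inhibitors of transcription and of translation, so the proportions of cells are not those of the tissue.

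The ribosome reads messenger RNA and builds protein. Its small subunit holds the messenger and decodes it, and its large subunit joins the amino acids. Ribosomal protein messenger RNAs are known as a coordinated group, many of them starting with a run of pyrimidines (C or T) that places their translation under control of the mTOR kinase, and growing or activated cells are known for making more ribosomes.

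After limits on UMIs (unique molecular identifiers, 1 per captured RNA molecule), genes and mitochondrial share, and removal of 340 doublets, 5625 cells remained, with 16 to 764 cells per library and a median of 900 UMIs per cell. Marker genes placed 2476 cells as microglia, 1132 as astrocytes, 138 as endothelial cells and 197 as mural cells, and 1647 cells received no type. Among the microglia, 278 cells held UMIs of at least 2 of the 7 genes Cst7, Lpl, Itgax, Clec7a, Spp1, Gpnmb and Igf1 and are called disease-associated microglia (DAM) here. In 4 mice over 20% of the deposited barcodes had a partner barcode that differed in the first base only: WT-vehicle 5 (62.5%), Tg2576-vehicle 4 (61.2%), Tg2576-PMX205 2 (34.5%) and Tg2576-PMX205 3 (23.8%). These shares were taken before the limits on cells, over barcodes found in 1 library only. Across libraries, 289 different barcodes occurred more than once and covered 626 cells. Marker sums follow from the typing, which used these same genes, and are given as a description only. The 15 microglial markers summed to 33648 to 57280 CPM (UMIs per 1000000 UMIs) in microglia and to 1686 to 6095 CPM in astrocytes, and the 12 astrocyte markers summed to 44992 to 53274 CPM in astrocytes and 1245 to 5330 CPM in microglia.

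The first 30-base windows around the annotated starts show what the start-site tract looks like in members on which the results below turn. Each window holds 10 bases before the start and 20 from it, on the sense strand, taken from the RefSeq promoter sequences on GRCm38.p6. Capitals mark a C followed by at least 4 bases that are each C or T, where the C lies within 5 bases of the annotated start. Where several C qualified, the capitals begin at the one nearest the start, so the run of C and T can reach further upstream in small letters. The members below with such a tract are Rps9, Rplp2 and Rps27l, and Rps10 and Rpl35 are shown because a qualifying C lies at the annotated start and is followed by a long run.

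Rps9, chr7:3704031-3704060, plus strand: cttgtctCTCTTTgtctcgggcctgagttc

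Rplp2, chr7:141447641-141447670, plus strand: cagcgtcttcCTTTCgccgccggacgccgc

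Rps27l, chr9:66946076-66946105, plus strand: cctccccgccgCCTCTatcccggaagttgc

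Rps10, chr17:27635225-27635254, minus strand: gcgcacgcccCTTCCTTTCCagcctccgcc

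Rpl35, chr2:39005112-39005141, minus strand: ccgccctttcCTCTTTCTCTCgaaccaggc

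The abundant Rps3, the stalk protein gene Rplp0 and Rpl41, which differed between regions, showed no such letters in their windows.

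Rps3, chr7:99483690-99483719, minus strand: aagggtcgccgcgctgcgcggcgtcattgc

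Rplp0, chr5:115559457-115559486, plus strand: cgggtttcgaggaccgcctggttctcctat

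Rpl41, chr10:128549149-128549178, minus strand: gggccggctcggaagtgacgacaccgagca

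RefSeq promoter entries were matched by symbol for 68 of the 93 members, with 80 entries in all. The tract was found in 33 of the 80 entries (41.2%), against 6027 of all 32851 promoters (18.3%). With the C exactly at the annotated start there were 15 entries (18.8%), against 2.51% of all promoters. Among 75 entries of mitochondrial ribosomal protein genes the tract was found in 22.7% and never at the start. A match is a description of these letters, and an annotated start can differ from the start used in these cells.

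In microglia, the resident macrophages of the brain, the 93 members together took 2.35% ± 0.56 (SD, n = 15 mice) of all UMIs. A few members held most of this: the 10 with the highest mean took 51.4% of the summed level. The most abundant was Rps3 on the small subunit, at 659 CPM in the lowest mouse, 1895 in the median and 3005 in the highest. Rps9, also of the small subunit, averaged 1764 ± 516 CPM, and Rplp1, an acidic protein of the large-subunit stalk that contacts elongation factors, 1754 ± 521 CPM (SD, n = 15). Rpl4 (1201 ± 309 CPM) and Rpl8 (1026 ± 352 CPM) of the large subunit followed. The differences between Rps3, Rps9 and Rplp1 and between Rpl4 and Rpl8 were smaller than the SD over mice. Rps14 (901 ± 234 CPM), Rplp0 (801 ± 288 CPM), Rps15 (782 ± 212 CPM) and Rps4x (750 ± 193 CPM) were also among the first 10. Counting takes 1 UMI per molecule near the 3′ end, so these levels carry no length term.

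At the other end of the range, 17 members were below 10 CPM in microglia and 7 had no UMI there: Rpl10l, Rpl32l, Rps3a2, Rps3a3, Rps4l, Rps12l1 and Rps27rt. A count of 0 over all microglia allows a level of up to 1.062 CPM (3 UMIs, counting error only). Rpl10l, known as a testis paralog of Rpl10, and Rpl3l, known as a muscle paralog of Rpl3, belong to this end, with 0 and 2 UMIs in all typed cells. Rpl39l, another paralog known from testis, stood at 3.47 CPM in microglia and had no UMI in the other 3 types. The 2 members that are not structural ribosomal proteins were low, at 34.4 CPM for Rps19bp1, a SIRT1-binding protein, and 0.387 CPM for Rpl7l1. The ubiquitin fusion gene Rps27a, whose protein is cut into ubiquitin and a small-subunit protein, was at 11.7 ± 15.5 CPM.

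Ribosomal protein genes have many processed pseudogenes, and an RNA stretch that also occurs in another annotated gene cannot be assigned to either by its sequence. Of the 86 members with a protein-coding transcript, the median share of 31-base words in the last 500 bases that occur in no other gene was 47.9%, against a median of 100% in 3418 other tested genes. In 12 members this share was under 10%, as in 0.322% of the other tested genes. Rpl5 had no unique word, Rps27a 7.02%, Rps6 8.94% and Rpl13 8.94%. The median level in microglia was 28.8 CPM in the 12 members under 10%, 106 CPM in the 36 members from 10 to 50% and 190 CPM in the 38 members with 50% or more. Across the 84 of these members with a UMI in typed cells, Spearman's rho between unique share and level was 0.24, as a description over genes of the same libraries. The order is not fixed by this share, since Rplp1 with 24.9% unique words was among the 3 most abundant members, but a level between members is uncertain wherever the share is low. Differences between samples compare a member with itself.

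**Figure D1:**
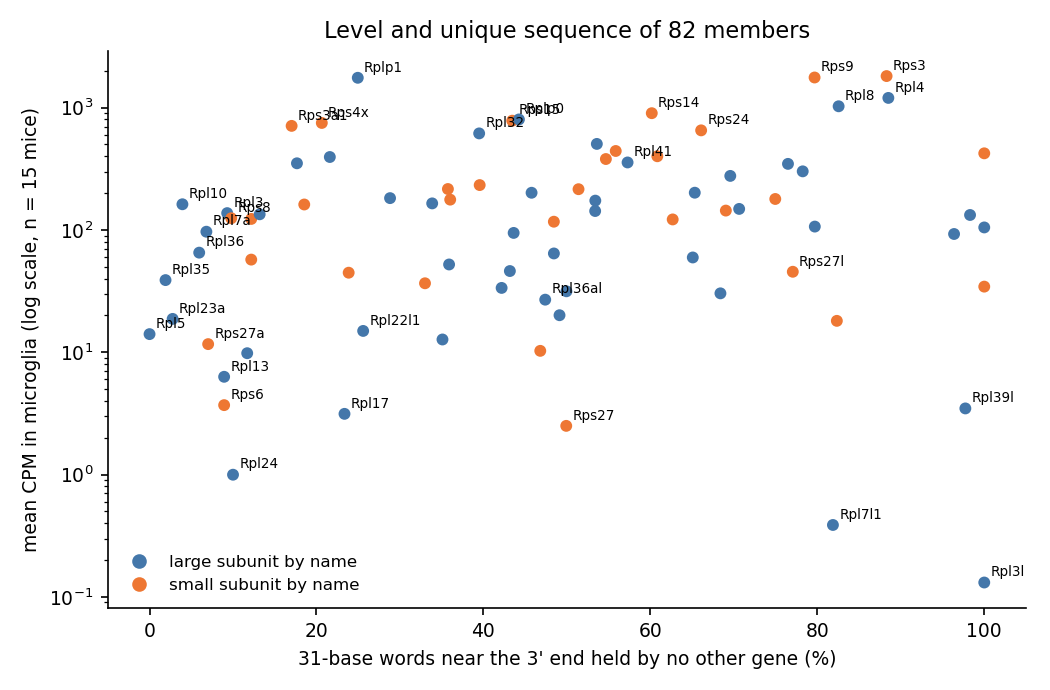
Mean level of single members in microglia (CPM, log axis, n = 15 mice) against the percentage of 31-base words in the last 500 transcript bases that occur in no other annotated gene. Each of the 82 points is 1 member with a UMI, coloured by subunit, and the median level over all 86 members is 28.8 CPM for members under 10% and 190 CPM for members with 50% or more.

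The cell types differed in their summed share. Astrocytes, which support neurons and synapses, were the lowest, with 0.626% in the lowest mouse, 0.723% in the median and 0.842% in the highest (mean 0.720% ± 0.072, SD, n = 12). All 12 mice lay below the lowest microglial value of 1.275%. Mural cells, the contractile cells of vessel walls, held 1.34% in WT-vehicle 1, 1.31% in WT-vehicle 4, 1.56% in Tg2576-vehicle 3, 1.31% in Tg2576-PMX205 2 and 1.502% in Tg2576-PMX205 3. Endothelial cells, which line the vessels, held 2.00% in WT-vehicle 1, 1.87% in Tg2576-vehicle 1, 2.23% in Tg2576-PMX205 2 and 2.43% in Tg2576-PMX205 3. Both vascular types overlapped the microglial range when mice were pooled, but within a mouse microglia were always higher. The ratio of microglia to astrocytes had a median of 3.39 and ran from 2.65 to 5.18 in 12 mice, that of microglia to mural cells a median of 1.83 (1.68 to 2.04, 5 mice) and that of microglia to endothelial cells a median of 1.22 (1.14 to 1.48, 4 mice). Large-subunit and small-subunit members took near-equal parts, 1.11% and 1.24% of UMIs in microglia and 0.361% and 0.359% in astrocytes. A share of UMIs does not tell more ribosomal protein RNA per cell from less of other RNA.

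**Figure D2:**
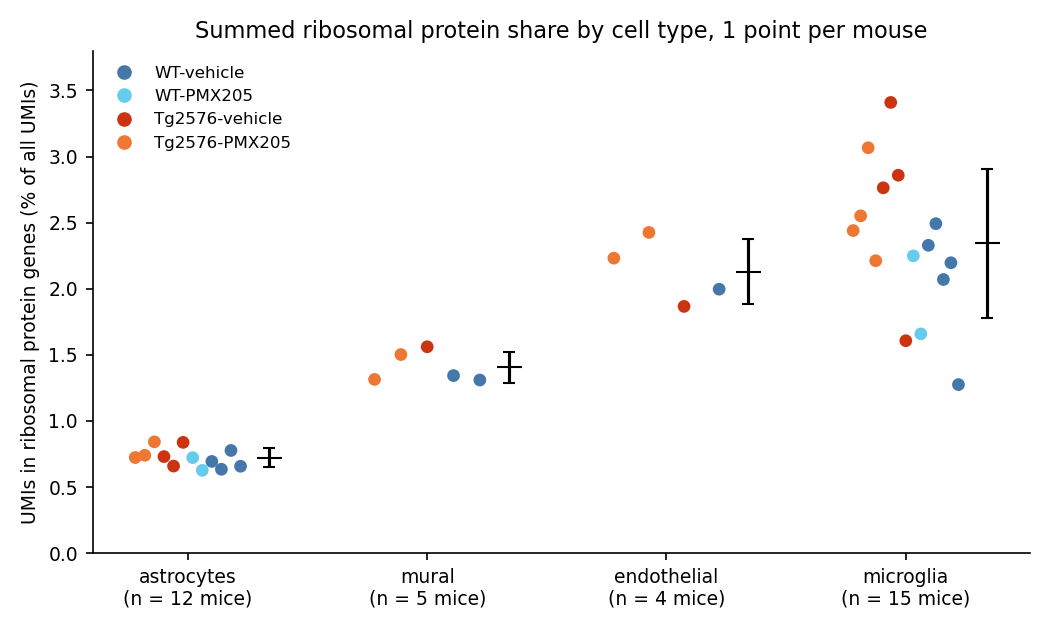
Summed UMIs of the 93 members as a percentage of all UMIs, by cell type, with 1 point per mouse coloured by group and bars for the mean and SD. Astrocytes lie between 0.626 and 0.842%, below every microglial sample (1.275 to 3.41%), and the mural (1.31 to 1.56%) and endothelial samples (1.87 to 2.43%) lie within the microglial range.

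For single members, the counts summed per mouse and cell type entered edgeR's quasi-likelihood test, with the mouse as a block and p-values adjusted over all 3510 genes tested (Benjamini-Hochberg, threshold 0.05). Of the 93 members, 51 passed the filter on low counts. In astrocytes 48 of these 51 were lower than in microglia and none was higher, while 30.4% of all tested genes were called lower. Their median log2 difference was -1.63, against 0.03 over all genes tested. Both subunits took part, with 25 of 27 large-subunit and 23 of 24 small-subunit members lower. Microglial ranges in the comparisons of cell types are over the 12 mice that also gave astrocytes, which leaves out WT-vehicle 5, Tg2576-vehicle 4 and Tg2576-PMX205 4. The ranges over these mice did not overlap for 19 members, and 32 members were lower in all 12 mice. These 2 counts were not made over all tested genes, so they have no background to be read against.

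Among the members with the greatest falls in astrocytes were proteins of the stalk and of the small subunit. For Rplp1 (chr9:61913284-61914542, minus strand, mm10) astrocytes ran from 171 to 616 CPM (median 356) and microglia of the same 12 mice from 1338 to 2909 CPM (median 1783). No astrocyte value reached the lowest microglial value (log2 difference -2.27 ± 0.19, SE, adjusted p = 6.44e-28, edgeR). Rplp0, the protein on which the stalk is built, differed by -2.14 ± 0.21, Rps9 by -2.11 ± 0.18 and Rps4x, the X-linked small-subunit protein, by -2.11 ± 0.21 on the log2 scale, again without overlap in these 12 mice. Over all 15 mice with microglia, the lowest level of Rplp0 was 253 CPM, within the astrocyte range that reached 326 CPM. Rplp2, the other acidic stalk protein, was lower by -1.91 ± 0.22 (adjusted p = 8.67e-16), and Rpsa, the small-subunit protein also known as laminin receptor, by -1.25 ± 0.21 (adjusted p = 2.99e-08). Among other members of the first 10, the log2 differences were -2.09 for Rps3, -1.96 for Rps15, -1.73 for Rpl4, -1.41 for Rpl8 and -1.25 for Rps14, all called lower.

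The 3 members not called in astrocytes were Rpl31 (log2 difference -0.68 ± 0.35, adjusted p = 0.0751), Rpl7a (-0.64 ± 0.35, adjusted p = 0.0941) and Rps27l (0.09 ± 0.42, adjusted p = 0.874). Rps27l, a paralog of Rps27 known as a p53 target, thus had the only positive difference. It stood at 45.5 ± 21.9 CPM in microglia, 43.6 ± 37.8 in astrocytes, 109 ± 81.9 in endothelial cells and 163 ± 119 in mural cells. Its ranges overlapped in every pair with microglia, and no difference was called (adjusted p = 0.621 in endothelial and 0.158 in mural cells). Other paralogs were low in all types: Rpl36al averaged 26.9 CPM in microglia, 23.6 in astrocytes, 52.4 in endothelial and 17.1 in mural cells, and Rpl22l1 14.9, 16.6, 54.4 and 29.3 CPM.

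Among members that did not pass the filter, Rpl23a stood apart, and it was chosen after its values were seen. It ran from 0 to 239 CPM in astrocytes (142 UMIs, mean 90.6 CPM) and from 0 to 63.9 CPM in microglia (34 UMIs, mean 18.7 CPM), so the order was opposite to that of the group. Only 2.77% of its 31-base words were unique, and 45 pseudogenes shared its sequence. It entered no test between cell types. Rps19bp1, untested as well, started at 0 CPM in each cell type. It reached 126 CPM in astrocytes (74 UMIs), 267 in mural cells (16 UMIs), 43.9 in endothelial cells (1 UMI) and 76.2 in microglia (102 UMIs).

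In mural cells 26 of 51 tested members were lower than in microglia and none was higher, against 22.1% of all tested genes called lower. The median log2 difference was -1.07 (-0.17 over all genes), with 13 of 27 large-subunit and 13 of 24 small-subunit members lower. All 26 were also lower in astrocytes. Rplp1 was measured at 312 to 903 CPM in the 5 mural samples, with a median of 589. It lay below all 12 microglial samples, as did Rps9 at 535 to 751 CPM and Rps3 at 512 to 926 CPM. Their log2 differences were -1.92 ± 0.29, -1.79 ± 0.29 and -1.77 ± 0.28 (adjusted p = 2.43e-09, 1.36e-08 and 1.07e-08, edgeR). For Rps4x (-1.75 ± 0.33) and the large-subunit member Rpl32 (-1.68 ± 0.36) the ranges overlapped, although both were lower in 5 of 5 mice. Rpsa was not called (-0.72 ± 0.33, adjusted p = 0.0712).

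Endothelial cells stood nearer to microglia. Of 51 tested members 10 were lower and none was higher, where 21.3% of all tested genes were called lower, so the share of members was near the background. The median log2 difference was -0.55, and that of all genes -0.43. With scaling by library size only these medians were -0.18 and -0.13, so the fall of the members was close to that of the typical gene on both scales. Stalk proteins were among the members that fell. Rplp1 was between 656 and 965 CPM in the 4 endothelial samples, below all 12 microglial samples (-1.64 ± 0.32, adjusted p = 4.36e-06, edgeR), and Rps9 between 542 and 1142 CPM (-1.40 ± 0.31, adjusted p = 6.54e-05). Rplp0 (-1.66 ± 0.36, adjusted p = 4.32e-05) and Rplp2 (-1.25 ± 0.39, adjusted p = 0.00569) were lower in 4 of 4 mice with overlapping ranges. Rpl39, a small basic protein near the exit tunnel (chrX:37082520-37085402, minus strand), had the greatest fall (-2.50 ± 0.84, adjusted p = 0.0113) on 0 to 43.9 CPM in endothelial cells, and it was the 1 of the 10 endothelial calls not called in mural cells. Rps14 was not called (0.07 ± 0.30, adjusted p = 0.891). The number of calls in this comparison ran from 4 to 21 with the scaling, filter and mice used, so which members pass is not firm.

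**Figure D3:**
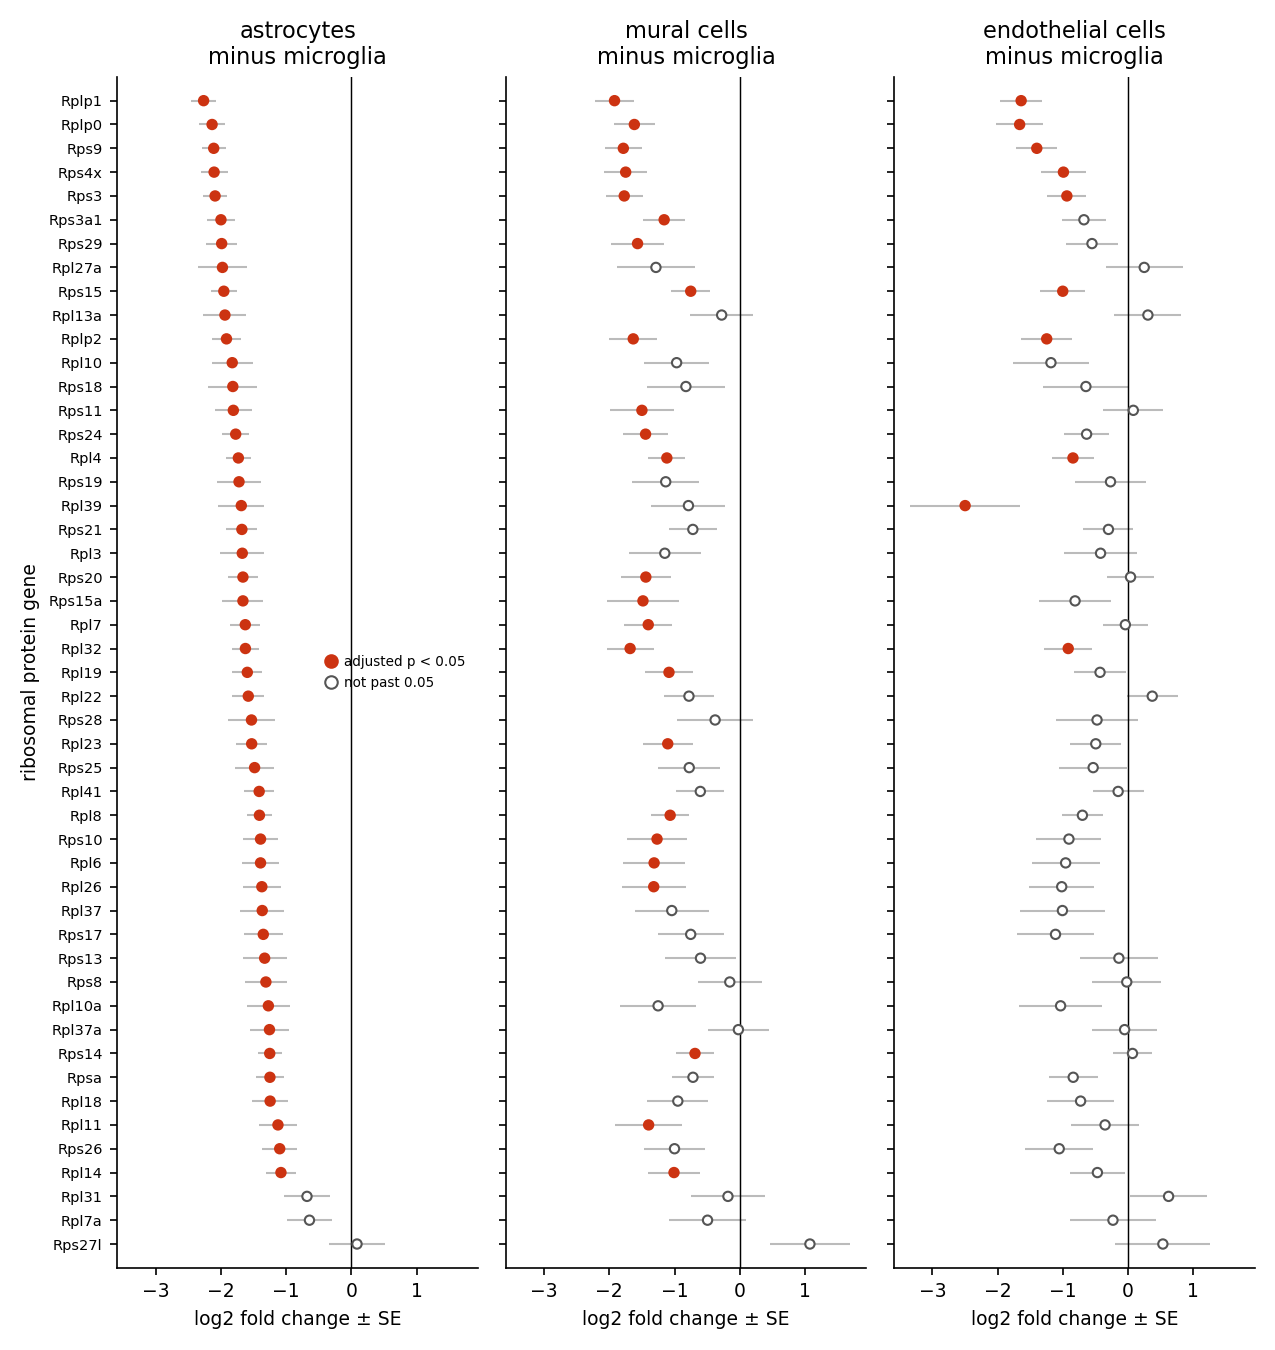
Log2 difference from microglia of 49 of the 51 tested members in astrocytes, mural cells and endothelial cells, with bars of 1 SE and filled points for adjusted p under 0.05. The medians are -1.63, -1.07 and -0.55, and 48, 26 and 10 members are called lower, over all 51.

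Genes that work with the ribosome were read from lists. In the list of ribosomal fusion and associated genes 4 of 5 tested members were lower in astrocytes, 3 in mural cells and 2 in endothelial cells, where 30.4, 22.1 and 21.3% of all tested genes were called lower. Fau, whose protein is cut into a ubiquitin-like part and a small-subunit protein, fell by 2.12 on the log2 scale in astrocytes, Rack1, the scaffold on the small-subunit head, by 2.00, and the growth-related Tpt1 by 2.39. Of 6 tested elongation factors 4 were lower in astrocytes, and Eef1a1, which brings aminoacyl-tRNA to the ribosome, fell by 2.32. Of 25 tested initiation factors 9 were lower and 2 higher in astrocytes, with a median of -0.23, and the share that was lower is near the 30.4% over all tested genes. Ribosome assembly genes left 2 tested, of which 1 was lower. Proteins of the mitochondrial ribosome, which is built separately, moved the other way: 7 of 11 tested were higher in astrocytes and none was lower, with a median log2 difference of 0.84, where 33.3% of all tested genes were called higher.

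DAM, the microglia found around amyloid plaques in mouse models, had the highest summed share. It was 3.43% in Tg2576-vehicle 1, 3.63% in Tg2576-vehicle 3, 1.54% in Tg2576-vehicle 4, 3.04% in Tg2576-PMX205 1, 3.38% in Tg2576-PMX205 2 and 3.99% in Tg2576-PMX205 3. The other microglia of these mice held 2.53, 2.58, 1.63, 2.24, 2.15 and 2.93%. DAM were thus higher in 5 of 6 mice, with a median ratio of 1.36 (0.948 to 1.58), and Tg2576-vehicle 4 was the exception and the lowest in both populations. These values sum the regions, whose mix can differ between the populations of a mouse: in Tg2576-PMX205 1 the hippocampus gave 37217 of 42323 UMIs of DAM and 37985 of 124560 UMIs of other microglia. Within cortex DAM were higher in 4 of 4 mice, with a median ratio of 1.41 (1.03 to 1.64), and within hippocampus in 5 of 5 mice, with a median ratio of 1.28 (1.20 to 1.39). DAM were found in Tg2576 mice for the most part: they made up 18.5, 10.9, 12.4 and 21.95% of microglia in Tg2576-vehicle mice 1 to 4 and 16.5, 23.9, 8.60 and 4.08% in Tg2576-PMX205 mice 1 to 4, against 0 to 0.58% in WT-vehicle and 0 to 2.04% in WT-PMX205 mice.

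Of 52 members tested between DAM and other microglia 7 were higher and none was lower, where 3.38% of all 2518 tested genes were called higher. All 52 fitted differences were positive, with a median of 0.54 against -0.03 over all genes (51 of 52 were positive with scaling by library size only). Rps19 (chr7:24884371-24889806, plus strand), a small-subunit protein known from Diamond-Blackfan anaemia, stood at 88.3, 302 and 291 CPM in the DAM of Tg2576-vehicle 1, 3 and 4 and at 23.6, 407 and 366 CPM in those of Tg2576-PMX205 1, 2 and 3. The other microglia held 43.2, 173, 89.8, 8.03, 172 and 228 CPM in the same order, so every mouse was higher in DAM although the ranges overlapped (1.17 ± 0.33, adjusted p = 0.020). Rpl6 of the large subunit was at 298, 318, 170, 520, 395 and 345 CPM in DAM against 204, 179, 97.3, 201, 143 and 228 CPM (1.04 log2, adjusted p = 0.0105). It, too, was higher in each of the 6 mice. Rpl41, the smallest ribosomal protein, was at 607, 670, 218, 662, 539 and 668 CPM in DAM and at 267, 280, 239, 385, 239 and 405 CPM in the rest (0.99 log2, adjusted p = 0.00178), with Tg2576-vehicle 4 the 1 mouse that was lower. The stalk followed: Rplp0 rose by 0.71, Rplp2 by 0.66 and Rplp1 by 0.54 on the log2 scale (adjusted p = 0.00848, 0.0229 and 0.0324, edgeR), and Rps14 rose by 0.67 (adjusted p = 0.00977). Over all 52 members, 8 were higher in each of the 6 mice, a count that was not made over all 2518 tested genes.

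The members pooled by mouse differed as well. In Tg2576-PMX205 2 the DAM level was above that of other microglia for 49 members and below for 3, while in Tg2576-vehicle 4 it was above for 26 and below for 26. The counts by mouse were not made over all tested genes. Of the fusion and associated genes 1 of 5 tested was called higher in DAM, Fau (0.76, adjusted p = 0.0195, edgeR), and of the elongation factors 1 of 6 tested, Eef1a1 (0.59, adjusted p = 0.00629, edgeR). None of 24 tested initiation factors was called by edgeR, and none of these genes was called lower, where 3.38% of all tested genes were called higher. DAM were deeper than other microglia, with medians of 1212 and 868 UMIs per cell, and 45.0% of DAM against 23.1% of other microglia belonged to a pair of barcodes that differ in the first base. With at least 1000 UMIs per cell 14 members were called, with a median of 0.58 and 47 of 47 tested members positive. With 1 barcode kept of each pair 11 members were called, with the 4 pair-rich mice left out 3, with both mice of conflicting strain label left out 2, and without any filter on low counts 0. Without Tg2576-vehicle 1, 3 or 4 the calls numbered 2, 2 and 15, and without Tg2576-PMX205 1, 2 or 3 they numbered 3, 1 and 4.

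**Figure D4:**
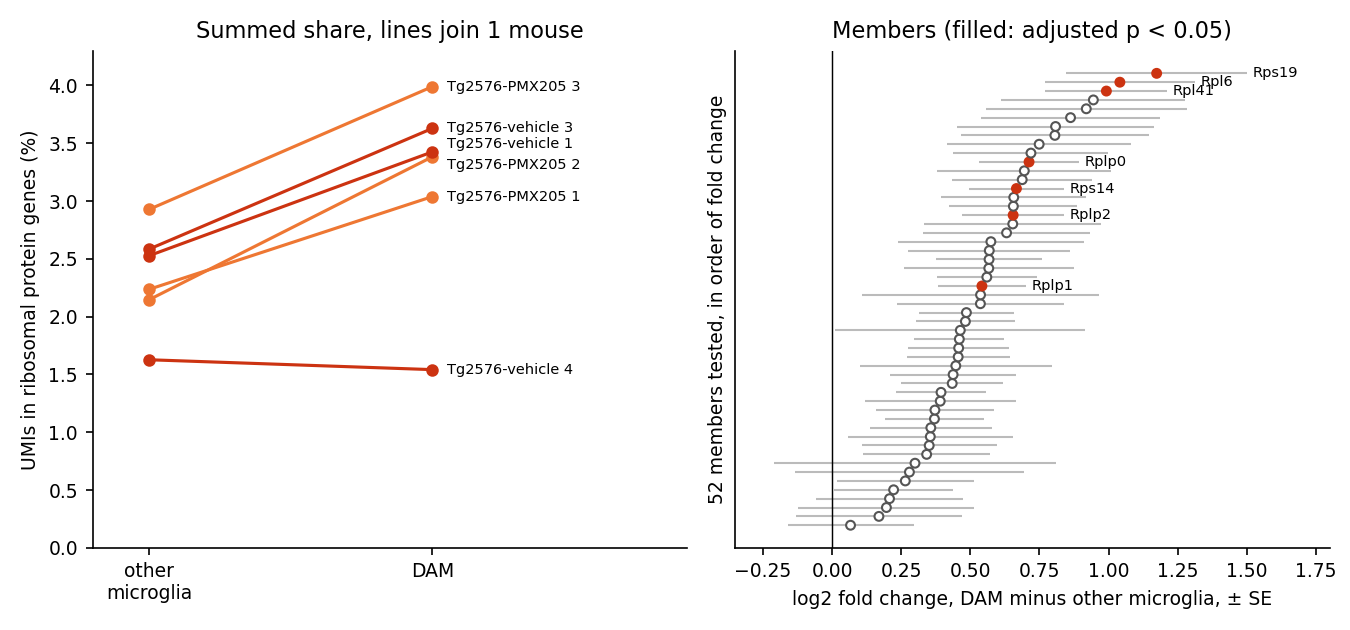
Summed share of the members (% of UMIs) in other microglia and DAM of the same 6 Tg2576 mice, joined by lines, and log2 differences of the 52 tested members with bars of 1 SE, filled where the adjusted p is under 0.05. Shares are higher in DAM in 5 of 6 mice, and all 52 fitted differences lie above 0 with 7 called.

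Between regions, hippocampal microglia had the higher summed share in 9 of 9 mice, with a median ratio to cortex of 1.18 (1.03 to 1.57). Over these mice the hippocampal share ran from 2.24 to 3.46%. The hippocampal libraries were also the deeper ones in 9 of 9 mice, with a median UMI count per cell 1.21 times that of cortex (1.11 to 1.52). Of 48 tested members 1 was called higher in hippocampus and none lower, where 0.121% of all tested genes were called higher. That was Rpl41, at 373 to 1284 CPM in hippocampus (median 525) and 209 to 412 CPM in cortex (median 282), higher in 9 of 9 mice with overlapping ranges (0.84 ± 0.19, adjusted p = 0.0435, edgeR). The count of calls was 0 when any of 8 of these mice was left out, and at the looser marker limit of 60% the member called was Rplp2 (0.60 ± 0.16, adjusted p = 0.0487) in place of Rpl41. Of the 48 fitted differences 42 were positive, with a median of 0.23 (0.00 over all genes). With a marker share of at least 90% the median was 0.12, with 37 of 48 positive, and with at least 1000 UMIs per cell it was 0.22, with 35 of 47 positive. No member was called by edgeR at that depth, and Rpl41 was at 0.67 ± 0.20 (adjusted p = 0.335, edgeR). Rps3 and Rpsa did not follow, with -0.005 ± 0.12 and 0.01 ± 0.17. In astrocytes the summed share was higher in hippocampus in 4 of 7 mice (median ratio 1.046, 0.766 to 1.23). None of 13 tested members was called by edgeR, where 3.57% of all genes were called in either direction. None reached an unadjusted p under 0.05, against 13.5% of all tested genes.

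By genotype, the mean summed share was higher in Tg2576-vehicle than in WT-vehicle microglia, but no member passed the test. The summed share was 2.33, 2.49, 2.07, 2.20 and 1.275% in WT-vehicle 1 to 5 (2.07% ± 0.47) and 2.76, 3.41, 2.86 and 1.61% in Tg2576-vehicle 1 to 4 (2.66% ± 0.76). The lowest mouse of each group was the one with over 60% of barcodes in first-base pairs, WT-vehicle 5 and Tg2576-vehicle 4. The groups overlapped through Tg2576-vehicle 4 alone, as the other Tg2576-vehicle mice lay above every WT-vehicle mouse. The other two pair-rich mice lay at the opposite end of their group, Tg2576-PMX205 3 at 3.07% and Tg2576-PMX205 2 at 2.55%, the highest and the second of the Tg2576-PMX205 mice. Of 60 tested members 0 were called by edgeR, where 0.167% of all 4801 tested genes were called, and DESeq2 called 0. An unadjusted p under 0.05 (edgeR) was found for 6 members, 5 higher and 1 lower in Tg2576-vehicle, against 3.04% of all tested genes. Of the fitted differences 53 were positive, with a median of 0.42 (0.01 over all genes). This median was 0.22 without WT-vehicle 5, 0.26 without Tg2576-vehicle 2 and 0.54 without Tg2576-vehicle 4. Rpsa was measured at 431, 402, 324, 432 and 130 CPM in WT-vehicle 1 to 5 and at 539, 744, 694 and 280 CPM in Tg2576-vehicle 1 to 4. All Tg2576-vehicle mice but Tg2576-vehicle 4 lay above every WT-vehicle mouse (0.74 ± 0.33, adjusted p = 0.999, edgeR). With DAM left out the median difference of the members was 0.28, and in cortex and hippocampus separately 0.36 and 0.35. With the 4 pair-rich mice left out it was 0.43, and 1 member was then called.

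PMX205 gave no call. In WT-PMX205 the summed share was 2.25 and 1.66% in mice 1 and 2 (mouse 3 had 12 microglia and was not used), and in Tg2576-PMX205 2.44, 2.55, 3.07 and 2.21% (2.57% ± 0.36). These values lie within the ranges of the vehicle mice of the same genotype. In Tg2576 microglia 0 of 60 members were called by edgeR between PMX205 and vehicle, where 0% of all genes were called. An unadjusted p under 0.05 was reached by 2 of the 60, against 2.69% of all genes. The median difference was -0.01 (-0.02 over all genes), and it ran from -0.30 with the pair-rich mice left out to 0.16 with the pair-rich mice as covariate. In WT microglia 0 of 60 were called, where 0% of all genes were called. An unadjusted p under 0.05 was found for 4 of the 60, against 6.79% of all genes. The median difference was -0.15 (-0.06 over all genes). This median was -0.39 with a marker share of at least 90%, -0.33 with the pair-rich mice left out and -0.06 without WT-vehicle 1, and it changed sign with the mouse used, from -0.54 without WT-PMX205 1 to 0.03 without WT-PMX205 2. Each of those fits leaves 1 WT-PMX205 mouse, which is assumed to vary like the mice of the other groups. The difference between both effects gave 0 of 60, where 0% of all genes were called. Here 2 members had an unadjusted p under 0.05, against 4.42% of all genes. The most abundant member, Rps3, was at 1870, 3005, 2518 and 955 CPM in Tg2576-vehicle 1 to 4 and at 1480, 1964, 1895 and 1939 CPM in Tg2576-PMX205 1 to 4.

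Astrocytes gave no call by group either. Their summed share averaged 0.691% ± 0.062 (n = 4) in WT-vehicle, 0.742% ± 0.090 (n = 3) in Tg2576-vehicle and 0.769% ± 0.064 (n = 3) in Tg2576-PMX205, and it was 0.723 and 0.626% in WT-PMX205 mice 1 and 2. The ranges of PMX205 and vehicle mice overlapped in both genotypes, as did those of Tg2576-vehicle and WT-vehicle mice. Of 38 tested members 0 were called by edgeR in each comparison. The share of all tested genes called was 0% between Tg2576-vehicle and WT-vehicle and between Tg2576-PMX205 and Tg2576-vehicle. It was 0.0256% between WT-PMX205 and WT-vehicle. At an unadjusted p under 0.05 there were 1, 0 and 3 members in this order, against 4.07, 4.10 and 7.22% of all tested genes. A p that misses the threshold does not show that the groups were alike.

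**Figure D5:**
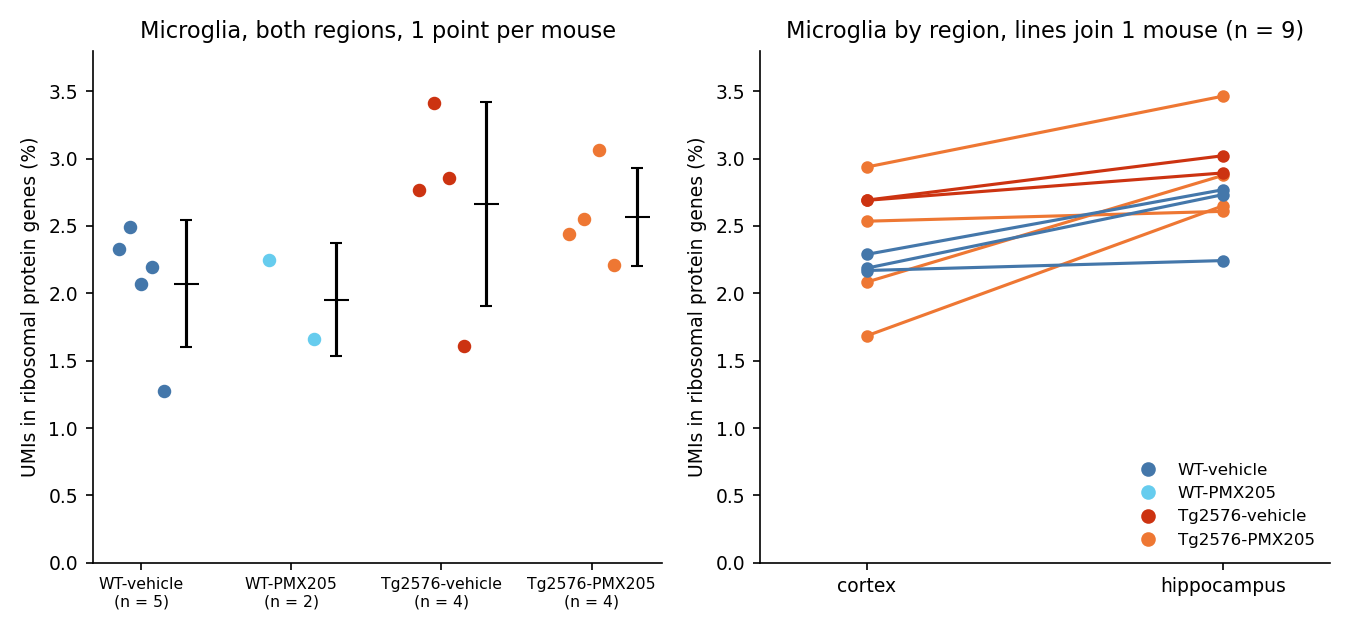
Summed share of the members (% of UMIs) in microglia by group, 1 point per mouse with bars for the mean and SD, and in cortex and hippocampus microglia of the same 9 mice. Hippocampus is higher in 9 of 9 mice, and the lowest microglial values of WT-vehicle and Tg2576-vehicle are 1.275 and 1.61%.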

How the data were processed

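UMI counts per gene and barcode were deposited by the authors for each of the 32 libraries. Per the study's methods, libraries were made with a 3′ droplet kit (SureCell, ddSEQ) and counted with kallisto and bustools on mm10 with GENCODE M21; the submitters' processing notes also name bcl2fastq 2.18.0.12 and Seurat. Cells with at least 500 UMIs and 300 genes and at most 5% mitochondrial UMIs were kept, and doublets were removed at a rate of 6% with the Scrublet method in scanpy. A cell was typed with at least 5 marker UMIs from at least 3 genes of which at least 75% belonged to 1 type. Counts were summed per mouse and type (at least 20 glia, 10 other cells or 10 DAM) and tested with edgeR 4.0.16 (quasi-likelihood, TMM, filterByExpr) in R 4.3.3, with mouse as a block between types, DAM and regions and with group means otherwise. Beside counts with Benjamini-Hochberg p-values, CPM are counts scaled to 1000000 UMIs of the sum. Mice were labelled as separate animals. DESeq2 1.42.0, other scalings, filters, cell limits and left-out mice were alternatives. Leaving out mice rich in barcode pairs, 1 barcode per pair, TMM without the members, covariates for pairs and strain label, DAM left out and hippocampus only were chosen after seeing the data. Each test was tested on simulated data. Members and gene lists were chosen with earlier results of these data known. Members named in the text were up to 5 called higher and 5 called lower per comparison with the greatest fold changes, the 10 most abundant in microglia, the stalk proteins and Rpsa, Rps27a, paralogs and members that are not ribosomal proteins. Rpl23a, Rps2, Rpl5, Rps6, Rpl13, the members not called in astrocytes and those shown for their windows were named after their values were seen. Coordinates and transcripts came from GENCODE M21 and start windows from RefSeq. Protein sequences were not used here, and 2 members are not reported singly here, although counts and sums include them.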

Additional observations from a re-analysis of the deposited data

Results flagged for a closer look

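In sets of 4 to 10 mice, the most extreme mouse was set against the rest of its set by Dixon's gap. This was done for the 10 most abundant members in microglia by group and for summed shares by cell type, over 40 sets. Chance alone gives about 1 in 20 of them. In 2 of the 40 sets a mouse stood apart, which is no more than this rate. Rps3 in microglia of Tg2576-PMX205 1 was at 1480 CPM, below the other Tg2576-PMX205 mice at 1895 to 1964 CPM. Rps14 in microglia of Tg2576-vehicle 4 was at 658 CPM, below the other Tg2576-vehicle mice at 1049 to 1072 CPM, and this mouse had 61.2% of its barcodes in first-base pairs.

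The 300 rows that carry -ps in their symbol, which are ribosomal protein pseudogenes by name and were left out of the members, were no part of the comparisons. They held 223 UMIs in microglia (76 rows with at least 1 UMI), 44 in astrocytes, 3 in endothelial cells and 5 in mural cells, and there were no control samples for them. This is 78.9 CPM in microglia and 30.7 CPM in astrocytes, and 3 UMIs in microglia correspond to 1.062 CPM.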

How the results depend on the processing

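The 48 lower calls in astrocytes stayed within 1.5 times under all alternatives and ran from 48 to 53 with each mouse left out in turn. The 10 endothelial calls became 4 with RLE scaling, 5 with library size only, 5 with DESeq2, 21 with no filter on low counts, 17 with doublets kept, 6 with at least 1000 UMIs per cell, 5 with the pair-rich mice left out and 17 with TMM without the members, and ran from 8 (without Tg2576-PMX205 3) to 19 (without Tg2576-vehicle 2) with 1 mouse left out. The 26 mural calls became 17 with library size only and 43 with no filter, and ran from 21 to 38 with 1 mouse left out. The 7 DAM calls became 0 with no filter, 14 with at least 1000 UMIs, 2 with conflicting strain labels left out, 11 with 1 barcode of each pair and 3 with the pair-rich mice left out, and ran from 1 (without Tg2576-PMX205 2) to 15 (without Tg2576-vehicle 4). The single call between regions in microglia became 0 with no filter, with a marker share of at least 90%, with at least 1000 UMIs, with barcodes of several libraries left out, with at least 50 glia per sum, with conflicting strain labels left out, with 1 barcode of each pair and with the pair-rich mice left out. With 1 mouse left out it ran from 0 to 1, and it was 0 without WT-vehicle 1, 2 or 4, Tg2576-vehicle 3 or any Tg2576-PMX205 mouse. Between Tg2576-vehicle and WT-vehicle microglia 0 became 1 with the pair-rich mice left out, and between Tg2576-PMX205 and Tg2576-vehicle 0 became 1 (Rps2) with no filter and 1 (Rps2) with the strain label as covariate. The cause of these changes was not tested. All other group comparisons stayed at 0 calls under every alternative run, from 0 to 0 with 1 mouse left out. Fits without the replicate block, in which cell types, DAM and regions of 1 mouse are not tied, moved no count by over 1.5 times, and replicate numbers do not pair mice across groups. Summed shares moved by less than their SD. Of 304 values of named members under other settings 0 changed sign and 26 lost their call, and with 1 mouse left out 0 of 336 changed sign and 21 lost theirs. Sums of 10511 UMIs in the smallest endothelial sample limit what low members can show.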

Other observations

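Rps2, a small-subunit protein at the messenger entry, had the largest SD relative to its mean among members with over 50 CPM in microglia and was picked out after its values were seen. It was at 14.3, 0, 105, 15.4 and 84.2 CPM in WT-vehicle 1 to 5, at 272 and 48.3 CPM in WT-PMX205 1 and 2, at 2.90, 0, 8.79 and 0 CPM in Tg2576-vehicle 1 to 4 and at 65.9, 125, 95.2 and 21.3 CPM in Tg2576-PMX205 1 to 4. Every Tg2576-PMX205 mouse thus lay above every Tg2576-vehicle mouse. The values rest on 161 UMIs in all microglia. The fitted difference was 4.32 ± 0.92 on the log2 scale (edgeR, adjusted p = 0.106), and 12.2% of the gene's 31-base words occur in no other gene, with 95 pseudogenes sharing sequence with it. Its adjusted p was 0.000168 with no filter on low counts, 0.0338 with the strain label as covariate and 0.652 with the pair-rich mice left out, and over all alternatives run it ran from 0.000168 to 0.999 with the sign kept in each.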
